A study of Drosophila melanogaster with 81 samples.

Results

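Acetylation of lysine 27 of histone H3 (H3K27ac) was mapped in Drosophila melanogaster embryos without their own replication-dependent histone genes, and the places described here carried an H3K27ac peak in these embryos but not in wild-type embryos. A place was counted when a HisC peak at 5.5 to 6 h after egg laying overlapped a HisC peak at 4.5 to 5 h by at least 1 bp and overlapped no w1118 peak of either time. The rule took 2943 of the 9494 peaks in the HisC list of 5.5 to 6 h (31%), which are called HisC-only peaks below. Of the other peaks of that list, 4795 met a w1118 peak and are called shared peaks, and 1756 met neither a w1118 peak nor a HisC peak of 4.5 to 5 h. The whole series held 233093 peaks in 26 lists. The H3K27ac values that chose the members are given as a description, without a test.

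The HisC embryos were homozygous for Df(2L)HisC, a deficiency of the histone gene cluster, with P{GAL4-twi.2xPE} on one copy of the chromosome and P{UAS:eYFP}AH2 on the other, and were picked by their eYFP. The label of the HisC libraries of H3K27me3 at 4.5 to 5 h gives Df(2L)HisC without the transgenes. The reference embryos were w1118, which carry neither the deficiency nor, per the labels, the transgenes, so deletion, transgenes and selection differed together and cannot be told apart. Whole embryos were used, the GAL4 driver is a twist construct active in the mesoderm, and the sex of the embryos is not given in the sources used here. CUT&Tag, in which an antibody brings a transposase to the chromatin that carries a mark and adapters are inserted there, was done for 6 marks at 4.5 to 5 h and 5.5 to 6 h, and for H3K4me3 also at 3.5 to 4 h. Each H3K27ac list stood for 2 libraries and every list for 2 or 3.

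H3K27ac is laid down by the acetyltransferase CBP, called Nejire in the fly, and lies at active promoters and enhancers. In wild-type fly embryos it spreads over the genome as the zygote's own genes are switched on. The stretches beside the centromeres are heterochromatin, packed with repeats, poor in genes and low in acetylation, and the genes that do lie there often have very long introns. Of the other marks, H3K4me3 lies at active promoters, H3K36me3 over transcribed gene bodies and H3K27me3 at Polycomb targets, while H2AK9ac and H2BK16ac are acetylations of the H2A and H2B histones.

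The lists give positions only. Depth and peak height are unknown, and a place without a peak may carry the mark below the level at which a peak was called. Where 2 values are given for a genotype, the first is of 4.5 to 5 h and the second of 5.5 to 6 h. The H3K27ac lists held 9889 and 9494 peaks in HisC, and 9668 and 8706 peaks in w1118. They covered 4.96% and 5.74% of the genome in HisC, and 5.02% and 5.93% in w1118, so that the HisC-only peaks stood beside w1118 lists of like size. With a single pooled list per group there is no spread between replicates, and no difference between the genotypes could be tested. The 95% intervals are Clopper-Pearson intervals of a share of peaks and cover counting error only. Positions are in dm6.

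The HisC-only peaks were 287 to 3650 bp wide with a median of 719 bp, against 773 bp for the shared peaks, and together covered 2.51 Mb. They made up 31.9% of the length of the HisC list of 5.5 to 6 h. A median of 78.3% of a HisC-only peak was covered at 4.5 to 5 h, and 2363 of them (80.3%) were covered over at least 50% of their length. Their median distance to the nearest w1118 H3K27ac peak was 2965 bp, with 41.4% nearer than 2000 bp and 28.4% farther than 10 kb. At the edge of the rule, the HisC-only peak at 3L:1773060-1773489 lay 1 bp from a w1118 peak, and the peak at 2L:19525589-19526015 was left out for an overlap of 1 bp. In all, 74 HisC-only peaks lay within 100 bp of a w1118 peak, and 135 peaks that otherwise met the rule were left out for an overlap of 1 to 100 bp. The HisC-only peaks at 2R:8622157-8622594 and 3R:4467193-4467836 overlapped a HisC peak of 4.5 to 5 h by 2 bp each, while the peak at 2L:15315449-15315741 was left out at a distance of 2 bp.

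Most HisC-only peaks lay inside genes, away from gene ends. Of the 2943, 1851 (62.9%, 95% interval 61.1% to 64.6%) were inside a gene and more than 500 bp from any gene end, 587 (19.9%, 18.5% to 21.4%) were within 500 bp of a gene end, and 505 (17.2%, 15.8% to 18.6%) lay between genes. The gene table gives no strand, so a gene end is either its start or its finish. Among the shared peaks the order was the other way round, with 59.5% at a gene end, 33.4% inside genes and 7.09% between genes. By length, 8.09% of the bases in HisC-only peaks were at gene ends, 73.7% inside genes and 18.2% between genes. In shared peaks 33.4% of the bases were at gene ends, 59.6% inside genes and 6.99% between genes, and in the genome 17.6%, 55.8% and 26.6%. Gene ends thus took up less of the HisC-only length than of the genome, and more of the shared length.

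A reverse group was made of the 2755 w1118 peaks of 5.5 to 6 h that overlapped a w1118 peak of 4.5 to 5 h and no HisC peak. The HisC-only peaks lay at a gene end in 19.9% of cases (18.5% to 21.4%), against 49.8% (47.9% to 51.6%) of the w1118 peaks of the reverse group. For the 1756 HisC peaks that met neither a w1118 peak nor a HisC peak of 4.5 to 5 h it was 19.7%. The w1118 H3K27ac lists had 52.6% and 56.9% of their peaks at gene ends. The rule left out every peak that met a w1118 peak, so the low HisC-only share is not independent of it. The midpoint of a HisC-only peak was a median of 2966 bp from the nearest gene end, against 799 bp for a shared peak and 846 bp for a w1118 peak of the reverse group. Within 3 Mb of a centromeric end the HisC-only median was 28840 bp. Elsewhere it was 2117 bp, against 785 bp for shared peaks. For peaks that met neither a w1118 peak nor a HisC peak of 4.5 to 5 h it was 2183 bp there.

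HisC-only peaks gathered beside the centromeres. Within 3 Mb of the centromeric end of an arm, on the 5 long arms, lay 606 of them (20.6%, 19.1% to 22.1%), against 198 shared peaks (4.13%, 3.58% to 4.73%) and 4.25% of the reverse w1118 peaks, in a stretch that makes up 10.9% of the genome. Of the 1756 HisC peaks that were neither HisC-only nor shared, 238 (13.6%) lay there. That share was below the HisC-only share but also above those of the shared peaks and the genome. The rule left out every peak that met a w1118 peak, and w1118 had few peaks there, so the HisC-only share is not independent of the rule. The share of the HisC peaks of 5.5 to 6 h that were HisC-only was 63.0% in the first 1 Mb, 55.7% from 1 to 3 Mb, 44.6% from 3 to 5 Mb and 25.6% farther out. The first 1 Mb held 223 HisC-only peaks and 52 shared ones, while the stretches over 5 Mb away held 1908 and 4233. The arms differed in how far this reached. On 2R the share was 77.6% in the first 1 Mb and 60.3% from 3 to 5 Mb. On 3L 48 of the 64 HisC peaks in the first 1 Mb were HisC-only, and 62.4% from 3 to 5 Mb, but on 2L the share was 54.4% and 30.1% and on X 46.9% and 30.9%. On 3R it did not fall steadily, with 52.0% in the first 1 Mb, 70.1% from 1 to 3 Mb and 39.5% from 3 to 5 Mb. Beyond 5 Mb the 5 arms were alike, at 24.4% to 26.6%.

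**Figure D1:**
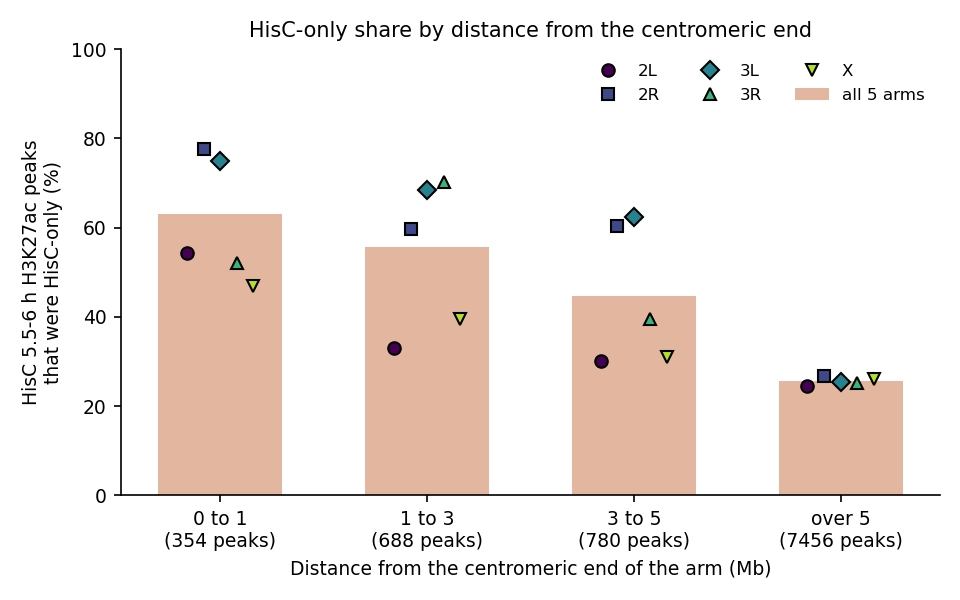
Share of the HisC H3K27ac peaks of 5.5 to 6 h that were HisC-only (y axis, percent) by distance from the centromeric end of the arm (x axis, Mb), with the number of peaks under each bin. Bars give all 5 arms and symbols the single arms; the bars go from 63.0% in the first 1 Mb to 25.6% beyond 5 Mb, where the 5 symbols lie together.

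The same tilt showed in the whole lists. HisC had 1162 (11.8%) and 1042 (11.0%) of its H3K27ac peaks within 3 Mb of a centromeric end, and w1118 had 413 (4.27%) and 331 (3.80%). In windows of 100 kb the densest runs of HisC-only peaks were at 2R:600001-700000 with 16, 2R:400001-500000 with 15, and 2R:500001-600000, 2R:1000001-1100000 and 3L:25900001-26000000 with 14 each. These windows held 0, 0, 1, 3 and 1 shared peaks. The 180 windows with at least 5 HisC-only peaks held 1163 of them (39.5%). How reads from repeats were placed is not given in the sources used here, and its part in the counts beside the centromeres was not tested.

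Away from the 5 long arms, the small, largely heterochromatic chromosome 4 held 41 HisC-only peaks and 83 shared ones, so that 31.1% of its HisC peaks were HisC-only, the same share as in the whole list. The Y, which is heterochromatic and carries few genes, held 40 HisC-only peaks and 16 shared ones. Its H3K27ac lists held 71 and 84 peaks in HisC, and 18 and 5 in w1118, and the reverse group had 0 peaks on the Y. A different number of male embryos in the pools cannot be told apart from a different mark on the Y.

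The genes with the longest HisC-only stretches were the giant genes beside the centromeres. Myo81F (3R:567076-2532932), which encodes a myosin heavy chain, had 105 HisC-only peaks in the gene and the 2000 bp around it. Its H3K27ac covered 112173 and 119158 bp in HisC, against 4561 and 2360 bp in w1118. DIP-lambda (2R:326768-705848), a cell-surface immunoglobulin protein of the family that pairs neurons, had 50 HisC-only peaks, and its H3K27ac covered 51787 and 55153 bp in HisC against 834 and 0 bp in w1118. The histamine transporter gene of photoreceptors, lovit (3L:25236940-25670980), had 31 HisC-only peaks, with 36869 and 38115 bp in HisC against 1286 and 1357 bp in w1118. In l(3)80Fg, with 25 HisC-only peaks, H3K27ac covered 29988 and 25385 bp in HisC against 2960 and 3013 bp in w1118. In Pzl (3R:2554162-3263582), a relative of the mechanosensory channel Piezo, with 23, it covered 27689 and 30822 bp in HisC against 601 and 0 bp in w1118. In each of these 5 genes both HisC values were far above both w1118 values. The genes were chosen by their HisC-only length, so this direction of H3K27ac follows in part from the choice.

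H3K4me3 and H3K36me3 also covered more of these 5 genes in HisC than in w1118 at both times. H3K4me3 covered 21035 and 16527 bp of DIP-lambda in HisC, and 0 and 0 bp in w1118, while H3K36me3 covered 44097 and 32529 bp in HisC and 0 and 0 bp in w1118. For Myo81F, H3K36me3 covered 63921 and 53949 bp in HisC, against 1435 and 897 bp in w1118. In l(3)80Fg it covered 5627 and 4746 bp in HisC and 427 and 512 bp in w1118. In lovit it covered 22658 and 12943 bp in HisC and 0 and 0 bp in w1118, and in Pzl 27030 and 16934 bp in HisC and 0 and 0 bp in w1118. H2AK9ac, in contrast, had peaks there in both genotypes: in Myo81F it covered 146687 and 178981 bp in HisC and 57822 and 143826 bp in w1118. H2BK16ac covered 182392 and 156380 bp of Myo81F in HisC and 89113 and 119265 bp in w1118. Not every row was higher in HisC: H2BK16ac covered 12714 and 11738 bp of l(3)80Fg in HisC against 8289 and 13575 bp in w1118, and H3K27me3 covered 12533 and 6855 bp of Myo81F in HisC against 8573 and 7865 bp in w1118.

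The next genes by HisC-only length held fewer HisC-only peaks each. Snap25, a SNARE protein of vesicle fusion, had 18 HisC-only peaks and 7 shared ones, and Dbp80, a helicase of mRNA export, had 17 and 1. The MAP kinase gene rl had 8 HisC-only peaks and 2 shared ones, sick had 10 and 4, and AGO3, an Argonaute of the piRNA pathway, had 8 and 0. In AGO3 the marks were split: H3K4me3 covered 930 and 789 bp in HisC and 1821 and 1873 bp in w1118, but H2AK9ac covered 7021 and 8188 bp in HisC and 1090 and 2609 bp in w1118. H3K36me3 of AGO3 covered 1825 and 697 bp in HisC and 0 and 1088 bp in w1118.

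**Figure D2:**
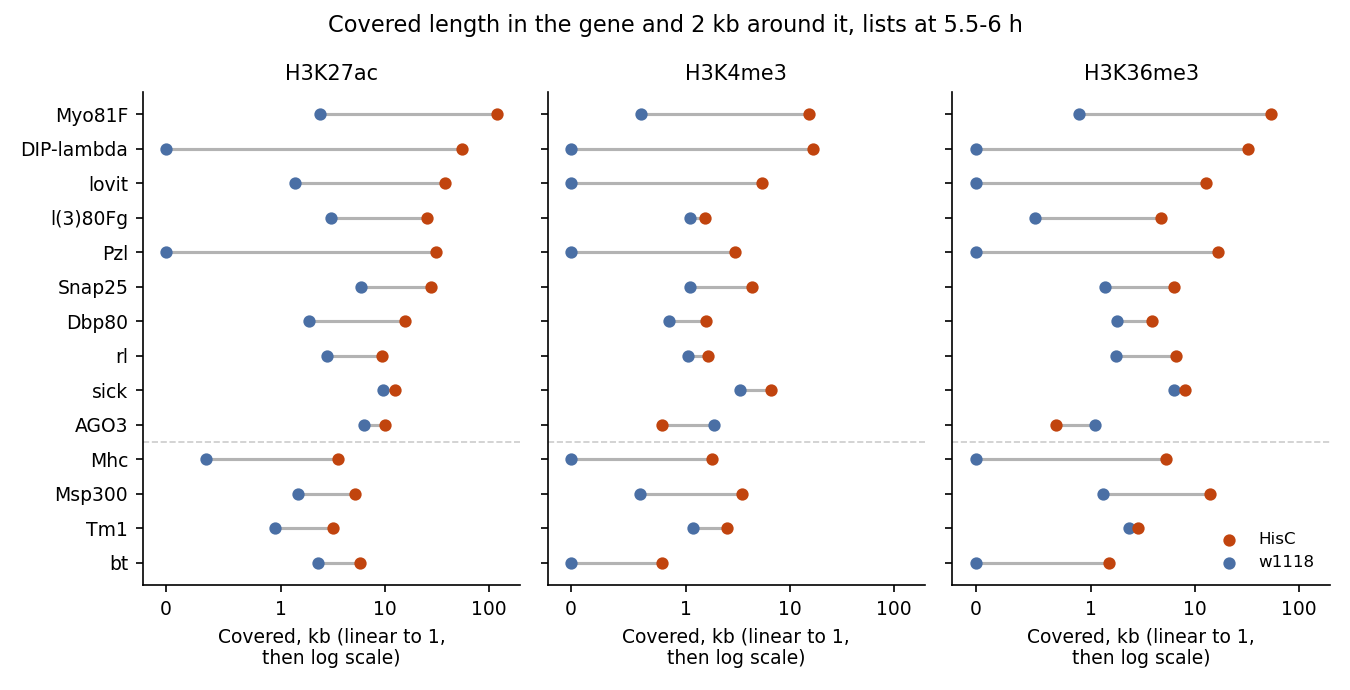
Length covered by H3K27ac, H3K4me3 and H3K36me3 peaks (x axis, kb, linear to 1 and logarithmic beyond) within each gene and 2 kb around it, in the HisC and w1118 lists of 5.5 to 6 h. Above the dashed line are the 10 genes with the most HisC-only bp and below it the 4 listed muscle genes with the most. HisC covers more than w1118 in every row but H3K4me3 and H3K36me3 of AGO3.

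Of 17807 genes, 3357 (18.9%) had a HisC-only peak within the gene or 2000 bp of it, 801 (4.5%) had one within 500 bp of an end, and 30 genes with at least 5 held 436 of the peaks. Away from the centromeres the HisC-only peaks were spread thinly over many genes. At 3 Mb or more from a centromeric end on the 5 long arms, 3183 of 16918 genes (18.8%) had one and 2668 of these had exactly 1, while 18 genes with at least 5 held 132 peaks. Within 3 Mb, 122 of 652 genes (18.7%) had one and 86 of these had exactly 1, while 11 genes with at least 5 held 299 peaks. Among genes over 5 Mb from a centromeric end, listed after their values were seen, Ten-m, a teneurin of axon guidance, had 9 HisC-only peaks and 6 shared ones. The RNA-binding protein gene mub had 8 and 3, the POU factor gene pdm3 had 7 and 1, and trol, the perlecan of basement membranes, had 5 and 1. In trol H3K27ac covered 3849 and 4831 bp in HisC against 0 and 372 bp in w1118, and H3K36me3 covered 6717 and 3982 bp in HisC against 0 and 0 bp in w1118, but H3K4me3 covered 0 and 311 bp in HisC against 1083 and 1423 bp in w1118. In Tet, by contrast, with 4 HisC-only and 4 shared peaks, H3K27ac covered 6639 and 7076 bp in HisC and 11571 and 13495 bp in w1118. A HisC-only peak thus stood both in genes with more H3K27ac in HisC and in genes with less.

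Most of the genes that held a HisC-only peak inside had a w1118 H3K27ac peak at an end at both times: 909 of 1251 such genes (72.7%, 70.1% to 75.1%), against 734 of 1082 genes with a shared peak inside (67.8%, 65.0% to 70.6%). The rule used the w1118 H3K27ac lists, so these shares are a description. Counted by peak, of the 1851 HisC-only peaks inside genes, 1296 (70.0%, 67.9% to 72.1%) lay in a gene that had a w1118 H3K27ac peak at an end at both times, against 70.1% of the shared peaks inside genes. Over all HisC peaks inside genes, the background here, it was 68.3%, so the HisC-only share was near the background. A w1118 H3K4me3 peak stood at an end of the host gene for 61.1% of the HisC-only and 66.6% of the shared peaks (background 61.9%). Genes of over 50 kb held 611 of the 1851 HisC-only peaks inside genes (33.0%, 30.9% to 35.2%) and 433 of the 1603 shared ones (24.9% to 29.3%), with a background of 30.5%. Counted by gene, the order was the other way round. Of the 1251 genes with a HisC-only peak inside, 147 (11.8%) were over 50 kb. Of the 1082 genes with a shared peak inside, 166 (15.3%) were. The intervals of these shares by gene overlapped. Peaks in the same gene are not independent, which the intervals by peak do not take into account. Of the 801 genes with a HisC-only peak at an end, 402 had no w1118 H3K27ac peak at either end and 399 had one at one or the other end.

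At most HisC-only peaks HisC embryos carried other marks too. In the lists of 5.5 to 6 h, H3K4me3 overlapped 1541 HisC-only peaks in HisC (52.4%, 50.5% to 54.2%; background over all HisC H3K27ac peaks 57.6%), against 358 in w1118 (12.2%, 11.0% to 13.4%; background 38.1%). At shared peaks the shares were 73.6% in HisC and 64.6% in w1118. H2AK9ac overlapped 73.1% of the HisC-only peaks in HisC (background 63.1%) and 49.3% in w1118 (background 49.1%), and H2BK16ac 66.2% in HisC (background 54.7%) and 52.5% in w1118 (background 47.4%). H3K36me3 overlapped 59.6% in HisC (background 52.6%) and 37.7% in w1118 (background 49.3%), whereas at shared peaks it overlapped 55.1% in HisC and 65.2% in w1118. H3K27me3 overlapped 18.5% in HisC (background 18.7%) and 8.60% in w1118 (background 13.6%). All 5 marks thus met more HisC-only peaks in the HisC list than in the w1118 list. The gap was widest for H3K4me3, at 52.4% in HisC against 12.2% in w1118. The direction was not particular to HisC-only peaks, since the background was also higher in HisC for all 5 marks. It was the same for all 5 marks at the 1756 HisC peaks that were neither HisC-only nor shared. There H3K4me3 was at 23.0% in HisC and 9.11% in w1118. In HisC, the H3K4me3 share of the HisC-only peaks lay below the background and the H3K27me3 share near it.

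**Figure D3:**
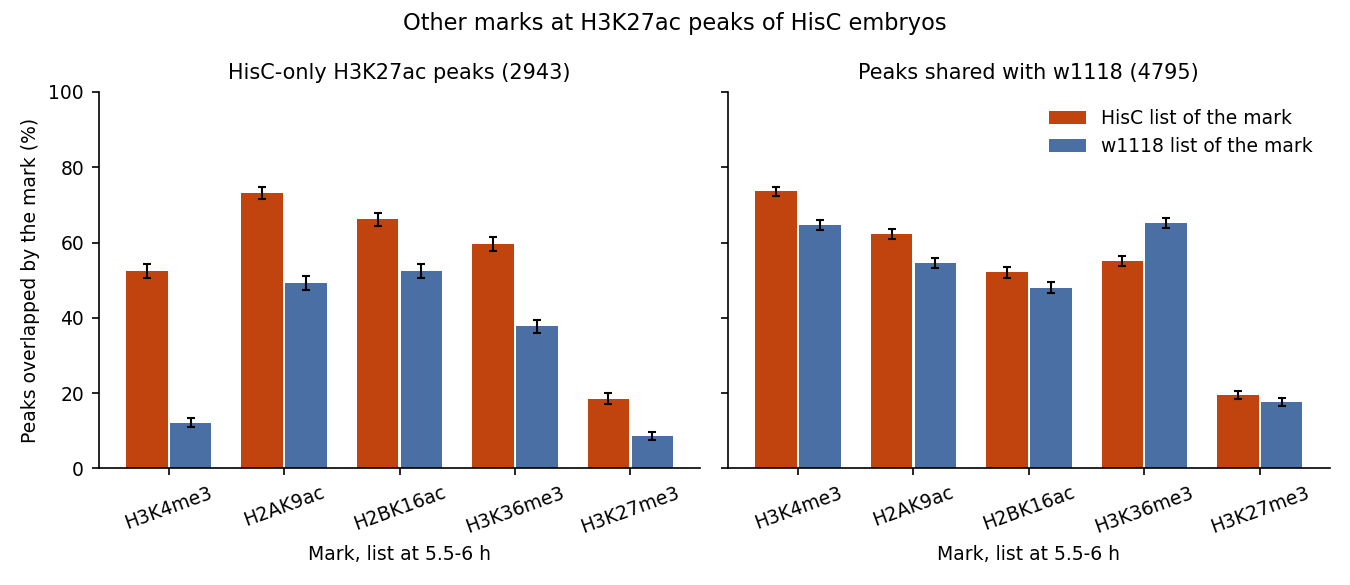
Share of peaks overlapped by each of 5 other marks (y axis, percent) in the HisC and w1118 lists of 5.5 to 6 h, for the 2943 HisC-only peaks (left) and the 4795 shared peaks (right), with Clopper-Pearson 95% intervals. At HisC-only peaks all HisC bars stand above the w1118 bars, with 52.4% against 12.2% for H3K4me3; at shared peaks H3K36me3 is the other way round, with 55.1% in HisC and 65.2% in w1118.

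The lists of the marks differed in size as well. The H3K4me3 lists of 5.5 to 6 h held 8991 peaks in HisC and 5728 in w1118, and covered 5.74% of the genome in HisC and 4.11% in w1118. For H3K36me3 they held 7479 peaks in HisC and 5433 in w1118 but covered 7.69% of the genome in HisC and 9.97% in w1118. For H2AK9ac and H2BK16ac the HisC list covered less of the genome than the w1118 list, at 7.89% against 8.45% and 7.61% against 8.57%. H3K27me3 covered 7.96% in HisC and 7.94% in w1118. The part of list size in the overlaps was not tested beyond these values.

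The earlier lists gave the same picture. At 4.5 to 5 h H3K4me3 overlapped 52.5% of the HisC-only peaks in HisC (background 55.2%) and 11.3% in w1118 (background 36.3%). H2AK9ac overlapped 66.9% in HisC (background 55.1%) and 46.2% in w1118 (background 43.7%), and H2BK16ac 68.9% in HisC (background 56.6%) and 39.8% in w1118 (background 35.8%). H3K36me3 overlapped 64.3% in HisC (background 54.4%) and 39.1% in w1118 (background 46.3%), and H3K27me3 22.2% in HisC (background 19.9%) and 9.89% in w1118 (background 14.2%). H3K4me3 was already there at 3.5 to 4 h, a time for which no H3K27ac list was used here: it overlapped 1748 HisC-only peaks in HisC (59.4%, background 64.4%) and 344 in w1118 (11.7%, background 40.4%). The H3K4me3 lists of that time held 12294 peaks in HisC and 6475 in w1118.

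In HisC embryos H3K4me3 lay on the centres of the HisC-only peaks rather than beside them. At the centre it covered 41.8% of the HisC-only peaks in HisC and 6.97% in w1118. At 5000 bp to the left and right it covered 8.66% on both sides in HisC, and 6.52% and 6.83% in w1118. Between 1000 and 5000 bp from the centre it lay at 5.10% to 9.0% in w1118, a range that includes the w1118 value at the centre. H3K36me3 covered 51.0% of the centres in HisC and 34.5% in w1118, but 1000 bp away 18.9% and 19.3% in HisC and 23.6% and 22.4% in w1118, a wider shape in w1118. H2AK9ac covered 63.2% of the centres in HisC and 36.3% in w1118, and H2BK16ac 55.4% in HisC and 40.9% in w1118.

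**Figure D4:**
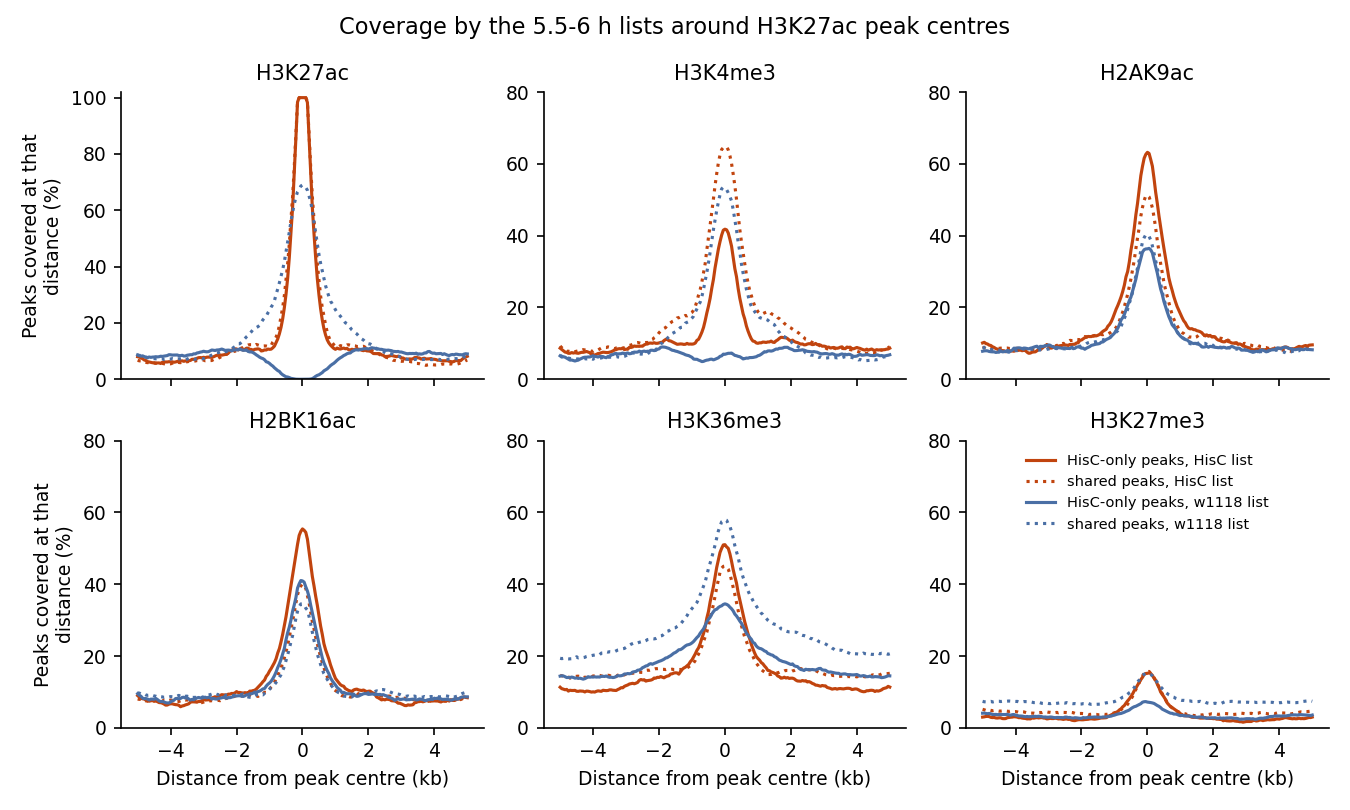
Share of peaks covered by the 5.5 to 6 h lists (y axis, percent) at each distance from the peak centre (x axis, kb), in HisC and w1118, for HisC-only peaks (solid) and shared peaks (dotted). The H3K27ac panel shows what the rule chose; in the H3K4me3 panel the HisC line of the HisC-only peaks reaches 41.8% at the centre while the w1118 line is at 6.97%.

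Taking both times together sharpened the difference between the marks. H3K4me3 was in both HisC lists and neither w1118 list at 914 HisC-only peaks (31.1%, background 14.5%), and in both w1118 lists and neither HisC list at 2 (background 0.643%). H3K36me3 followed with 533 (18.1%, background 9.01%) in HisC alone and 47 (background 5.01%) in w1118 alone. For H2AK9ac the counts were 349 in HisC alone (background 8.28%) and 34 in w1118 alone (background 2.19%), and for H2BK16ac 345 (background 9.05%) and 38 (background 1.86%). H3K27me3 was in HisC alone at 238 (background 6.54%) and in w1118 alone at 53 (background 3.9%). In all 4 lists H2AK9ac was at 773 HisC-only peaks (26.3%, background 22.3%), H2BK16ac at 722 (24.5%, background 19.4%) and H3K36me3 at 884 (30.0%, background 31%), each more than in HisC alone. H3K4me3 was in all 4 lists at 299 (10.2%, background 32.8%) and H3K27me3 at 135 (4.59%, background 5.9%), each fewer than in HisC alone.

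HisC-only peaks of H3K4me3, chosen by the rule used for H3K27ac, numbered 2128. Of these 43.7% overlapped a HisC-only H3K27ac peak, and 30.4% of the HisC-only H3K27ac peaks overlapped one of them, against 8.49% of the shared H3K27ac peaks (background 15.1%). The backgrounds here are shares of all HisC H3K27ac peaks. How many of all HisC peaks of a mark overlapped a HisC-only H3K27ac peak was not computed, so values such as the 43.7% have no background. For H3K36me3 the rule gave 1252 peaks, of which 38.4% overlapped a HisC-only H3K27ac peak, and 17.1% of the HisC-only H3K27ac peaks overlapped one, against 3.55% of the shared ones (background 8.46%). For the other marks the shares of the HisC-only H3K27ac peaks lay nearer to the background. Of 1378 HisC-only H2AK9ac peaks 21.4% overlapped a HisC-only H3K27ac peak, and 10.5% of the HisC-only H3K27ac peaks overlapped one of these, against 6.13% of the shared ones (background 7.76%). Of 1727 for H2BK16ac 18.4% did, with 10.9% of the HisC-only and 7.63% of the shared H3K27ac peaks (background 8.3%). Of 2871 for H3K27me3 7.91% did, with 7.92% of the HisC-only and 5.90% of the shared H3K27ac peaks (background 6.6%).

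Counted over the 10 other lists of each genotype at 4.5 to 5 h and 5.5 to 6 h, a HisC-only peak met a median of 6 in HisC and 3 in w1118, and a shared peak 5 in HisC and 5 in w1118. More HisC than w1118 lists were met by 2311 HisC-only peaks (78.5%, background 58.3%) and more w1118 lists by 236 (8.02%, background 22.1%), and among shared peaks these shares were 46.8% and 32.3%. All 10 HisC lists met 211 HisC-only peaks (7.17%, background 6.1%), a share near the background, and all 10 w1118 lists met 7 (0.238%, background 1.86%). At the other end, 204 HisC-only peaks (6.93%, background 9.38%) met none of the 10 HisC lists and 472 of the 2943 (background 13.1%) none of the 10 w1118 lists, while 84 (2.85%, background 1.34%) met at least 5 in HisC and none in w1118.

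Since the rule took places without w1118 H3K27ac, the w1118 shares of marks that lie with H3K27ac are not independent of it, and the reverse group is set beside them. At w1118 peaks without HisC H3K27ac, H3K4me3 of 5.5 to 6 h was found at 31.1% in HisC and 36.3% in w1118. H3K36me3 was found at 11.6% in HisC and 30.8% in w1118, H2AK9ac at 13.0% in HisC and 26.0% in w1118, H2BK16ac at 13.6% in HisC and 20.9% in w1118, and H3K27me3 at 13.6% in HisC and 22.7% in w1118. In their own genotype the HisC-only peaks met a median of 6 of 10 lists, against 2 of 10 for the w1118 peaks of the reverse group.

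The marks at HisC-only peaks varied with where the peak lay, as they did at shared peaks. Near the centromeres H3K4me3 overlapped 28.7% of 606 HisC-only peaks in HisC and 2.15% in w1118, and H3K36me3 40.9% in HisC and 4.29% in w1118, while H2AK9ac was at 76.7% in HisC and 48.0% in w1118. Inside genes of the arms, 1462 HisC-only peaks, H3K4me3 was at 60.2% in HisC and 9.64% in w1118, and H3K36me3 at 67.9% in HisC and 50.5% in w1118. At gene ends of the arms, 553 peaks, H3K4me3 was at 70.0% in HisC and 35.8% in w1118. Between genes of the arms, 241 peaks, H3K4me3 and H3K36me3 were each at 0.415% in w1118, that is at 1 peak, but at 25.7% and 36.5% in HisC. H3K27me3 went the other way between genes, at 14.1% of the HisC-only peaks in HisC and 19.5% in w1118, as it did at shared peaks there, at 34.5% in HisC and 58.7% in w1118. H3K4me3 at shared peaks was also most frequent at gene ends, with 88.5% in HisC and 85.3% in w1118. It was at 63.6% of the shared peaks near the centromeres in HisC and 52.0% in w1118, at 55.6% in HisC and 37.1% in w1118 inside genes of the arms, and at 29.2% in HisC and 18.6% in w1118 between genes. In HisC, H3K4me3 was thus at 60.2% of the HisC-only against 55.6% of the shared peaks inside genes, but at 28.7% of the HisC-only against 63.6% of the shared peaks near the centromeres. On chromosome 4 H3K36me3 was at 29.3% of 41 peaks in HisC and 53.7% in w1118, and on the Y H2AK9ac was at 90.0% of 40 peaks in HisC and 22.5% in w1118.

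**Figure D5:**
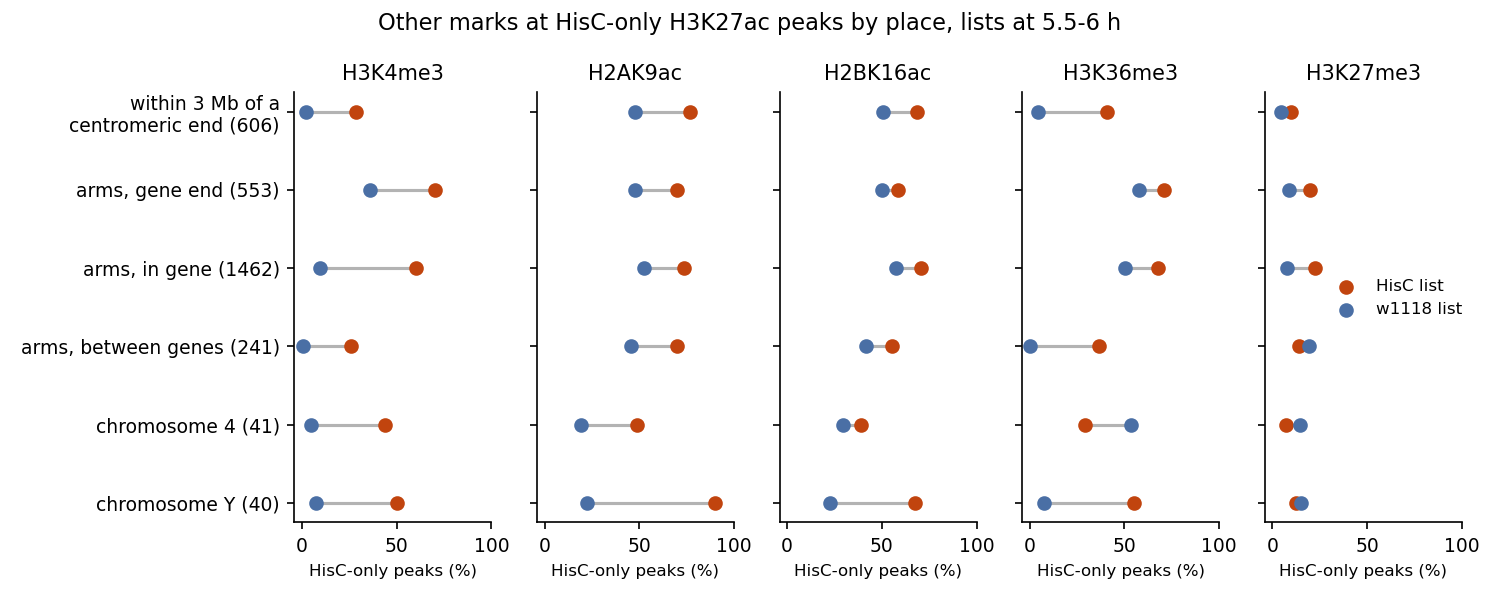
Share of HisC-only H3K27ac peaks overlapped by each of 5 marks (x axes, percent) in the HisC and w1118 lists of 5.5 to 6 h, by place, with the number of peaks in brackets. HisC lies to the right of w1118 in all places for H3K4me3, H2AK9ac and H2BK16ac; w1118 lies to the right for H3K36me3 on chromosome 4 and for H3K27me3 between genes and on chromosomes 4 and Y.

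Wide HisC-only peaks met more marks than narrow ones, and so did wide shared peaks. Of the 1056 HisC-only peaks of at least 899 bp, 65.5% met H3K4me3 in HisC and 13.7% in w1118, and 88.7% met H2AK9ac in HisC and 60.2% in w1118. Of the 851 of at most 513 bp, 39.6% met H3K4me3 in HisC and 9.05% in w1118, and 57.3% met H2AK9ac in HisC and 36.7% in w1118. Among shared peaks of the same widths, H3K4me3 was at 87.4% of the wide ones in HisC and 78.6% in w1118, and at 55.7% of the narrow ones in HisC and 48.6% in w1118. H2AK9ac was at 83.1% of the wide shared peaks in HisC and 67.6% in w1118, and at 35.6% of the narrow ones in HisC and 40.5% in w1118.

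The widest HisC-only peak, 3650 bp at 2R:1177063-1180712, lay between genes, 26704 bp from CR42653 and 22687 bp from the nearest w1118 H3K27ac peak. It met all 10 other HisC lists and 2 of the w1118 lists. H3K36me3 covered 3628 and 3650 bp of it in HisC and 0 and 0 bp in w1118, and H3K4me3 2187 and 1909 bp in HisC and 0 and 0 bp in w1118. A peak of 2643 bp inside lovit, at 3L:25615670-25618312, lay 55581 bp from any w1118 H3K27ac peak. This peak was named for meeting all 10 other HisC lists, so the presence of these marks in HisC there follows from the choice. H3K4me3 covered 1655 and 1805 bp of it in HisC and 0 and 0 bp in w1118, whereas H2AK9ac covered 2379 and 2620 bp in HisC and 1215 and 2643 bp in w1118.

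Some wide HisC-only peaks lay in genes that w1118 embryos also mark. The peak of 3361 bp at 3L:569826-573186, in the protein kinase gene Hipk, met 10 HisC and 6 w1118 lists. H3K36me3 covered 1386 and 2505 bp of it in HisC and 2999 and 2891 bp in w1118, but H3K4me3 covered 1074 and 1191 bp in HisC and 0 and 0 bp in w1118. The peak of 2976 bp at 2L:19168386-19171361, in the translational repressor gene brat, had 2546 and 1882 bp of H3K4me3 in HisC against 0 and 318 bp in w1118, and 2971 and 2578 bp of H3K36me3 in HisC against 2967 and 2976 bp in w1118. In the RNA-binding protein gene larp, the peak at 3R:28321585-28324320 had 1027 and 675 bp of H3K4me3 in HisC and 0 and 0 bp in w1118, with H3K36me3 over all 2736 bp in w1118 at both times. The larp peak was not among the 10 widest. It was named for meeting all 10 other HisC lists, so the presence of H3K4me3 in HisC there follows from the choice. These were bodies of genes with H3K36me3 in w1118 that carried H3K27ac and H3K4me3 in HisC. H3K4me3 covered more of each of these peaks in HisC, but in brat it was not absent from w1118, with 318 bp at the later time. Not every wide peak had company: the 3095 bp at 3L:23867293-23870387, in CG40470, met 2 HisC lists and no w1118 list.

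Gene lists are given by the number of genes with a HisC-only peak within the gene or 2000 bp, beside 18.9% of all genes. All genes together had 22.8 HisC-only and 41.6 shared peaks per Mb, so that more shared than HisC-only peaks is the state of genes in general. They were drawn up with earlier results of these data known, and long genes have more room for a peak. Of 15 apoptosis and DNA damage genes 9 had one, at 77.8 HisC-only and 90.7 shared peaks per Mb. Among them hid, an inhibitor of the apoptosis inhibitors, had 2 HisC-only peaks, with H3K27ac over 2835 and 3005 bp in HisC and 2106 and 1874 bp in w1118. Xrp1, a stress factor downstream of p53, had 2, but its H3K27ac covered 3011 and 2912 bp in HisC and 3865 and 4025 bp in w1118. RnrL, the large subunit of ribonucleotide reductase, had 1 of 1164 bp, with H3K27ac over 1086 and 1164 bp in HisC and 0 and 0 bp in w1118. The checkpoint kinase gene lok had 2, with 1364 and 1360 bp in HisC and 1217 and 1439 bp in w1118.

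Muscle structural genes, which wild-type embryos switch on in full only later as muscles form, had a HisC-only peak in 6 of 15, at 28.4 HisC-only and 28.4 shared peaks per Mb. Mhc (2L:16766566-16788766), the muscle myosin heavy chain, had 4 HisC-only peaks and no shared one. Its H3K27ac covered 3780 and 3530 bp in HisC and 422 and 349 bp in w1118. H3K36me3 covered 5298 and 5310 bp of Mhc in HisC and 0 and 0 bp in w1118, and H3K4me3 1235 and 1784 bp in HisC and 0 and 0 bp in w1118. Msp300, a nesprin that anchors muscle nuclei, had 3 HisC-only peaks, with H3K27ac over 3351 and 5152 bp in HisC and 3399 and 1445 bp in w1118, and H3K36me3 over 13232 and 14067 bp in HisC and 941 and 1321 bp in w1118. Tm1, a tropomyosin, had 2, with H3K27ac over 1501 and 3131 bp in HisC and 1191 and 950 bp in w1118, and H3K36me3 over 2349 and 2855 bp in HisC and 3382 and 2339 bp in w1118. The giant muscle protein gene bt on chromosome 4 had 3 HisC-only and 4 shared peaks, with H3K27ac over 5554 and 5758 bp in HisC and 4809 and 2254 bp in w1118, and H3K4me3 over 882 and 795 bp in HisC and 0 and 0 bp in w1118. Mhc, Msp300, Tm1 and bt were chosen by their HisC-only length, so the direction of their H3K27ac follows in part from the choice. H2AK9ac and H2BK16ac were mixed. Both covered less of Msp300 in HisC than in w1118 at both times. H2BK16ac covered more of Mhc and Tm1 in HisC but less of bt, and H2AK9ac of these genes changed direction between the times. The HisC embryos carry a mesodermal driver that w1118 lacks, and its part in the values of the muscle genes was not tested.

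Of 15 mesoderm genes, which act earlier than the muscle genes, 3 had a HisC-only peak, at 6.87 HisC-only and 37.1 shared peaks per Mb. One was zfh1, a mesodermal zinc-finger factor, with 3 HisC-only peaks and H3K27ac over 2724 and 4340 bp in HisC and 3979 and 4005 bp in w1118. The other developmental lists were as follows. Of 24 segmentation genes 6 had one (26.6 HisC-only and 60.8 shared peaks per Mb), of 14 dorsal ectoderm genes 2 (7.88 and 19.7) and of 17 neuroectoderm and neuroblast genes 5 (27.7 and 69.1). Among the 8 Hox genes 4 had one, at 13.5 HisC-only and 21.6 shared peaks per Mb, none at a gene end. Antp had 2, with H3K27ac over 4768 and 4021 bp in HisC and 10231 and 12453 bp in w1118, so this gene had less H3K27ac in HisC as a whole.

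Among genes for the maintenance of every cell, several lists lay above all genes in both kinds of peak. Of 85 ribosomal protein genes 18 had a HisC-only peak, at 41.6 HisC-only and 227.5 shared peaks per Mb, and of 18 cell cycle genes 5, at 25.7 and 118.4. Cdc23, a subunit of the anaphase-promoting complex with H3K27ac over 3253 and 3011 bp in HisC and 0 and 373 bp in w1118, had no HisC-only peak, since its HisC peak met the w1118 peak of 5.5 to 6 h. Of 16 histone variant and chaperone genes 3 had one (44.2 HisC-only and 168.0 shared peaks per Mb), among them both H3.3 genes: His3.3B had 3 HisC-only peaks and His3.3A had 1. Heterochromatin protein genes had one in 4 of 10 (45.3 and 135.8), and JNK and stress signalling genes in 6 of 17 (31.7 and 83.1), among them Jra and kay, the fly's Jun and Fos. Of 16 amino acid and glucose transporter genes 3 had one (16.6 and 41.4), among them the amino acid transporter gene mnd with 2 and H3K27ac over 2266 and 2927 bp in HisC and 1184 and 1481 bp in w1118.

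Families that serve the later nervous system and senses had HisC-only peaks in few genes, but in some of these w1118 had no H3K27ac peak at either time. Of 54 neuronal immunoglobulin genes 7 had one, at 22.6 HisC-only and 5.48 shared peaks per Mb, and DIP-lambda alone held 50 of the peaks. The next, dpr21 (2R:3066499-3191011), had 6, with H3K27ac over 6216 and 7846 bp in HisC and 0 and 0 bp in w1118. Of 66 ionotropic receptor genes 6 had one (26.3 and 21.9). Ir41a (2R:4917519-5021955) had 6, with 7644 and 7232 bp in HisC and 0 and 0 bp in w1118, and Ir40a had 2, with 3834 and 3740 bp in HisC and 0 and 0 bp in w1118. DIP-lambda and Ir40a lie within 3 Mb of a centromeric end, and dpr21 and Ir41a between 3 and about 5 Mb from that of 2R. HisC-only peaks gathered in these stretches, but unevenly over the genes. Within 3 Mb, 122 of 652 genes had one (18.7%), near the share of all genes, and 11 genes with at least 5 held 299 peaks. The part of the place in the values of these receptor and immunoglobulin genes was not tested. Of 28 neuronal channel and receptor genes 4 had one (4.91 and 8.42), among them the dopamine receptor gene Dop1R1 with 2006 and 1881 bp in HisC and 0 and 0 bp in w1118. Of 119 odorant and gustatory receptor genes 6 had one (12.3 and 29.9), of 84 cytochrome P450 genes 7 (13.1 and 34.8) and of 120 cuticle protein genes 4 (7.90 and 23.7).

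Among protein-coding genes grouped by H3K27ac at their ends, which the rule used, a HisC-only peak lay in 194 of 308 genes (63.0%) with an end peak in both HisC lists and neither w1118 list. It lay in 19.7% of 2927 genes with an end peak in all 4 lists, in 18.5% of 1843 genes with one in both w1118 lists and neither HisC list, and in 3.40% of 5641 genes with none. Per length, the genes with end peaks in both HisC lists alone held 155.3 HisC-only peaks per Mb, those with end peaks in all 4 lists 39.6, those with end peaks in both w1118 lists alone 28.6, and those with none 9.92. An end peak in both HisC lists and neither w1118 list comes close to meeting the rule itself. The high values of that group were thus largely set in advance and are no result about its genes.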

How the data were processed

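CUT&Tag peak lists of 26 groups (59 of 81 libraries) were used. The deposited lists hold peak start and end positions in bp, made by the authors, with no other value (the unit is a position, not a signal). The submitters' processing notes name the build dm6 and Bowtie2 2.3.4.2, SAMtools 1.9, deepTools 3.3.1, cutadapt 1.17 and Trim Galore 0.6.6. How peaks were called, at what threshold, and how libraries were joined is not given in the sources used here. Per the list names, blacklisted regions were removed, lists are narrow for H3K4me3 and H3K27ac and broad for the other marks, and the HisC H3K4me3 list of 3.5 to 4 h had a further exclusion whose meaning is not given.

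Overlaps of at least 1 bp were counted in Python 3.11.15 with pandas 2.3.3, and the interval code was tested on simulated data. Intervals came from scipy 1.17.1. A RefSeq gene table of Release 6 (dm6) placed 17807 genes on 7 chromosomes. It gives no strand, so windows of 500 bp around both gene ends replaced promoters. All listed symbols matched. The members and gene lists were chosen with earlier results of these data known. Named regions were the 10 widest and the 10 met by most HisC lists. Named genes were the 10 with the most HisC-only bp (no CG or CR numbers), up to 4 per gene list, and Ir40a, Cdc23, mnd and Dop1R1. Only a part of them is printed. Alternatives changed the rule, the windows, the required overlap and the chromosomes used.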

Additional observations from a re-analysis of the deposited data

How the results depend on the processing

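Of 136 values recomputed under 15 alternatives, 4 of which were added after seeing the data, 67 stayed within the 95% interval of the reported share (or within 1.5 times a count) and 69 did not. The share of HisC-only peaks with a mark was larger in the HisC list for all 5 marks under all 10 alternatives that gave it. The background over all HisC H3K27ac peaks had the same direction for all 5 marks, so the direction is not particular to HisC-only peaks. No paired analysis was possible because each group has a single pooled list, and for the same reason no replicate could be left out. Motifs were not searched.

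Where a HisC peak at 4.5 to 5 h was not required, 4699 peaks met the rule, 18.0% near the centromeres, at ends of 1255 genes, with H3K4me3 at 41.4% in HisC, H2AK9ac at 64.1% in HisC and 43.4% in w1118, H2BK16ac at 57.4% in HisC and 46.7% in w1118, and H3K36me3 at 49.9% in HisC and 33.1% in w1118. Where 50% of the peak had to be covered at 4.5 to 5 h, 22.4% were near the centromeres.

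With no w1118 peak within 500 bp, 16.2% were at gene ends and 23.0% near the centromeres, with H3K4me3 at 48.7% in HisC and 6.97% in w1118 and H3K36me3 at 57.7% in HisC and 33.9% in w1118. With none within 2000 bp, 1724 peaks remained, 11.9% at gene ends, 31.7% near the centromeres and at ends of 258 genes. H3K4me3 was then at 40.6% in HisC and 3.60% in w1118, H3K36me3 at 52.8% in HisC and 22.4% in w1118, H2BK16ac at 68.6% in HisC and 55.3% in w1118, and H2AK9ac at 51.8% in w1118.

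Among peaks of at least 500 bp, H3K4me3 was at 57.4% in HisC, H2AK9ac at 79.2% in HisC and 54.1% in w1118, H2BK16ac at 72.2% in HisC and 57.2% in w1118, H3K36me3 at 66.1% in HisC and 39.9% in w1118, and H3K27me3 at 20.8% in HisC. With each H3K27ac list held to its 8706 widest peaks, the HisC shares were 54.6% for H3K4me3, 75.2% for H2AK9ac, 68.1% for H2BK16ac and 62.2% for H3K36me3.

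With 50% of the peak covered by the mark, the shares were 38.8% in HisC and 6.63% in w1118 for H3K4me3, 60.4% in HisC and 33.3% in w1118 for H2AK9ac, 51.2% in HisC and 37.7% in w1118 for H2BK16ac, 48.1% in HisC and 34.4% in w1118 for H3K36me3, and 13.3% in HisC and 6.80% in w1118 for H3K27me3. Without the peaks near the centromeres, they were 58.5% in HisC and 14.8% in w1118 for H3K4me3, 64.5% in HisC and 46.4% in w1118 for H3K36me3, and 20.8% in HisC for H3K27me3. With the lists of 4.5 to 5 h, they were 66.9% in HisC and 46.2% in w1118 for H2AK9ac, 68.9% in HisC and 39.8% in w1118 for H2BK16ac, 64.3% in HisC for H3K36me3, and 22.2% in HisC and 9.89% in w1118 for H3K27me3.

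Gene ends of 250 bp gave 9.85% of peaks and 374 genes, and of 1000 bp 31.3% and 1565 genes. Protein-coding genes alone gave 16.8%. Within 1 Mb of a centromeric end lay 7.58% of the peaks and within 5 Mb 32.4%. The cause of these shifts was not tested beyond what each alternative changes. Without depth, a missing peak cannot be told from a weak one.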
